A study of Rattus norvegicus with 6 samples.

Results

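The genes described here are 38 genes of the unfolded protein response and the integrated stress response, chosen by name and not by their values. Of these, 37 were measured among the 15227 genes of the files, and the level of *Derl3* was not analysed here. They were followed in UMI counts from single cells of the cerebral hemisphere, in rats with acute carbon monoxide poisoning (CO) and negative control rats (NC), with 3 libraries in each group. CO rats breathed 1000 ppm carbon monoxide for 40 minutes and then 3000 ppm for 20 minutes, and were taken as poisoned when consciousness was impaired and carboxyhemoglobin was above 60%, per the series description. NC rats were described as normal controls, and strain, age, sex and the time between exposure and sampling are not given in the sources used here. In both groups the tissue was digested with trypsin and DNase I in a warm bath, and the suspensions were run on the 10x Genomics droplet platform.

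The endoplasmic reticulum (ER) folds secreted and membrane proteins, and the unfolded protein response adjusts its capacity. Its sensors lie in the ER membrane. PERK (*Eif2ak3*) slows translation by phosphorylating eIF2, IRE1 (*Ern1*) splices the messenger RNA of the transcription factor XBP1, and ATF6 is cleaved to release a transcription factor. XBP1 and ATF6 are known to raise ER chaperones and degradation factors. Phosphorylation of eIF2 is the hub of the integrated stress response, and other kinases also carry it out under amino acid shortage, heme shortage or viral infection. This phosphorylation favours translation of the transcription factor ATF4, which raises its target genes. Much of this control is by splicing, cleavage and translation, which gene counts do not show. In brain, highly secretory cells such as choroid plexus epithelium are known for high chaperone levels.

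The genes were ordered as 15 ER chaperones and folding enzymes, 8 measured genes of translocation and ER-associated degradation, 4 sensors and their transcription factors, and 10 genes of the integrated stress response. Cells were sorted into classes by marker genes alone, and 27370 of 38027 kept cells fell into 9 classes that each held 30 or more cells per library. These were 6373 CO and 5708 NC microglia-gated cells, 324 CO and 407 NC border-associated macrophage-gated cells, 2251 CO and 3072 NC endothelial-gated cells, 314 CO and 295 NC mural-gated cells, and 1465 CO and 3933 NC oligodendrocyte-gated cells. The others were 552 CO and 425 NC astrocyte-gated cells, 175 CO and 148 NC ependymal-gated cells, 325 CO and 350 NC choroid plexus-gated cells, and 926 CO and 327 NC neuroblast-gated cells. Among the 10 leading genes of each class, 2 to 7 were markers of that class. Mature neurons, a main cell type of the labelled tissue, passed their gate in 18 CO cells and 1 NC cell and were not compared. The libraries held 39494470 to 47322264 UMIs each. Within a group the libraries differed in microglia-gated cells by about what single cells of 1 pool would give (mean ratio of observed to expected variance 1.01 in CO over 7129 genes and 0.978 in NC over 6648 genes), although the series text names 3 rats in each group. Over all kept cells the mean ratio was 1.09 in CO and 1.02 in NC. Over the members alone it was 1.465 in CO and 1.048 in NC. The other classes were not checked singly. 1 cell barcode was shared over the 15 pairs of libraries. Each group was therefore counted as 1 sample, no p-value is given, and the 95% intervals beside log2 ratios come from the binomial distribution of the UMIs and cover counting error only. A UMI is 1 counted RNA molecule, CPM is the UMI count scaled to library size with TMM factors within a class, and every ratio is CO over NC on the log2 scale. A gene was compared in a class with at least 100 UMIs over both groups, and called higher or lower from 1.5-fold.

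Promoter sequence ties several of these genes to each other. The ER stress response element, CCAAT, any 9 bases and CCACG, is the textbook binding site of NF-Y with ATF6 or XBP1. On either strand it was present in 8 of the 32 members that had a promoter window in the RefSeq table (25%, build GRCr8, 250 bases before to 50 after the annotated start), against 22 of all 33469 windows (0.0657%). ERSE-II, which is ATTGG, any base and CCACG, was present in 3 members (9.38%) and in 0.0508% of all windows. The UPRE, TGACGTGG, was present in 1 member (3.12%) and in 0.595% of all windows. The CARE, TGATGNAA, which CHOP or ATF4 with C/EBP partners bind, was present in 3 members (9.38%) and in 3.98% of all windows. Many of these genes are the textbook examples from which the elements were defined, so the excess is no independent result. ERSE was found in 6 of 12 chaperone genes with a window, in *Xbp1* and in *Derl3*, and in 0 of 10 genes of the integrated stress response. The stretches below hold the elements of 8 members whose ratios are described further on, each with up to 30 bases on either side, given 5′ to 3′ on the strand of the gene with the fixed letters of the elements in capitals.
Hspa5: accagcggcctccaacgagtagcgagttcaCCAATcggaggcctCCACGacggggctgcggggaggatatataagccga
Creld2: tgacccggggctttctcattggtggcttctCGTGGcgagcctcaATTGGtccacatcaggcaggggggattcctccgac
Xbp1: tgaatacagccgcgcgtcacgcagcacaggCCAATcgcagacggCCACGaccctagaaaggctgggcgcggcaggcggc
Hsp90b1: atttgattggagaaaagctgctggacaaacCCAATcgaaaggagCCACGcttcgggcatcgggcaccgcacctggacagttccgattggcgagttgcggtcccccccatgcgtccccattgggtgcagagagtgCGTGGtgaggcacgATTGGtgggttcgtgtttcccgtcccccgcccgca
Calr: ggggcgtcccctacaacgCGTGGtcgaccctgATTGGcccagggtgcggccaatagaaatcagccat
Canx: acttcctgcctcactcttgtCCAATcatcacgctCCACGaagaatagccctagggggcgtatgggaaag
Hyou1: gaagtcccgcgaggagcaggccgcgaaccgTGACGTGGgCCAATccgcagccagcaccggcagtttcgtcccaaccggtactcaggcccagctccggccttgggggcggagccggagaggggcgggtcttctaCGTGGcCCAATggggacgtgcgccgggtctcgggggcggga
Herpud1: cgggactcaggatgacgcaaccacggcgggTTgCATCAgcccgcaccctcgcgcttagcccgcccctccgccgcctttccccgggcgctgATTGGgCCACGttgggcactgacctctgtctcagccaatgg
In GRCr8 these stretches are chr3:38452943-38453021 for *Hspa5*, chr7:121789209-121789287 for *Creld2*, chr14:84604528-84604606 for *Xbp1* and chr19:40213117-40213183 for *Calr*, all on the plus strand. *Hyou1* is shown at chr8:53602661-53602834, also on the plus strand. *Hsp90b1* is at chr7:23012317-23012499, *Canx* at chr10:35158039-35158107 and *Herpud1* at chr19:10614791-10614921, on the minus strand. The ERSE begins 43 bases before the annotated start in *Hspa5*, 65 in *Xbp1*, 145 in *Creld2*, 230 in *Canx* and 232 in *Calr*, and *Hsp90b1* has it at both 176 and 72 bases before the start. In *Hyou1* a UPRE overlaps one of its ERSE-II elements. *Herpud1* carries both an ERSE-II and a CARE. All 7 ERSE members compared in microglia-gated cells had a ratio below 0 there (median -0.39), as did 14 of 18 members with neither ERSE nor ERSE-II in the window (median -0.25). *Canx*, with an ERSE, had a ratio of -0.05, and *Herpud1* had 0.43, so members with an element overlapped in ratio with those without one.

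In microglia-gated cells, the largest class, 14 of 15 ER chaperones had ratios below 0, and 3 of them were called lower in CO, led by *Hspa5*, which was 2.23-fold lower. *Herpud1* (0.43), *Edem1* (0.36) and *Cebpb* (0.38) lay above 0 without reaching 1.5-fold, and *Atf4* (-0.03) and *Ddit3* (-0.12) lay closer to 0. Of 34 members compared, 29 had a ratio below 0 and the median was -0.27, against 5082 of 10246 genes below 0 and a median of 0.00 (0.00305) over all genes compared. At least 1.5-fold lower were 5 members, where 6.44% of all genes compared were, and 1 was at least 1.5-fold higher, where 5.82% were. In 26 members all 3 CO libraries lay below all 3 NC libraries, where 24.2% of all genes did, and in 3 members they lay above, where 24.2% of all genes did.

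*Hspa5* encodes BiP, the main Hsp70 chaperone of the ER lumen, which also holds the sensors inactive. It had 617, 611 and 631 CPM in CO libraries, against 1400.0, 1434 and 1324 CPM in NC libraries. The libraries of a group lay close together and the groups did not overlap, with a ratio of -1.16, interval -1.18 to -1.14. *Manf*, an ER-resident protein with neurotrophic properties, had 208, 212 and 218 CPM in CO libraries, against 439, 447 and 432 CPM in NC libraries. Its ratio was -1.05, interval -1.09 to -1.01, and again the groups were far apart. *Creld2*, an ER stress-inducible secreted protein, had 19.4, 15.9 and 19.1 CPM in CO libraries, against 36.0, 34.6 and 33.1 CPM in NC libraries (-0.92, interval -1.06 to -0.79). *Dnajb11*, a cochaperone of BiP, had 78.6, 85.4 and 83.1 CPM in CO libraries, against 118, 113 and 111 CPM in NC libraries (-0.47, interval -0.53 to -0.40), apart between the groups but short of 1.5-fold. The other folding genes followed in the same direction by less. The Hsp90 chaperone *Hsp90b1* was at -0.39, the lectin chaperones *Calr* and *Canx* at -0.38 and -0.05, and the cochaperones *Sdf2l1*, *Dnajb9* and *Dnajc3* at -0.42, -0.37 and -0.17. *Hyou1*, the nucleotide exchange factor of BiP, was at -0.45, and the disulfide isomerases *Pdia3*, *Pdia4* and *Pdia6* were at -0.28, -0.46 and -0.17. *P4hb*, the classic protein disulfide isomerase, was the 1 chaperone gene not below 0, at 0.03, with overlapping libraries. Summed over the 15 genes, the CO libraries had 4845, 4829 and 4961 CPM and the NC libraries 6811, 6854 and 6747 CPM.

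**Figure D1:**
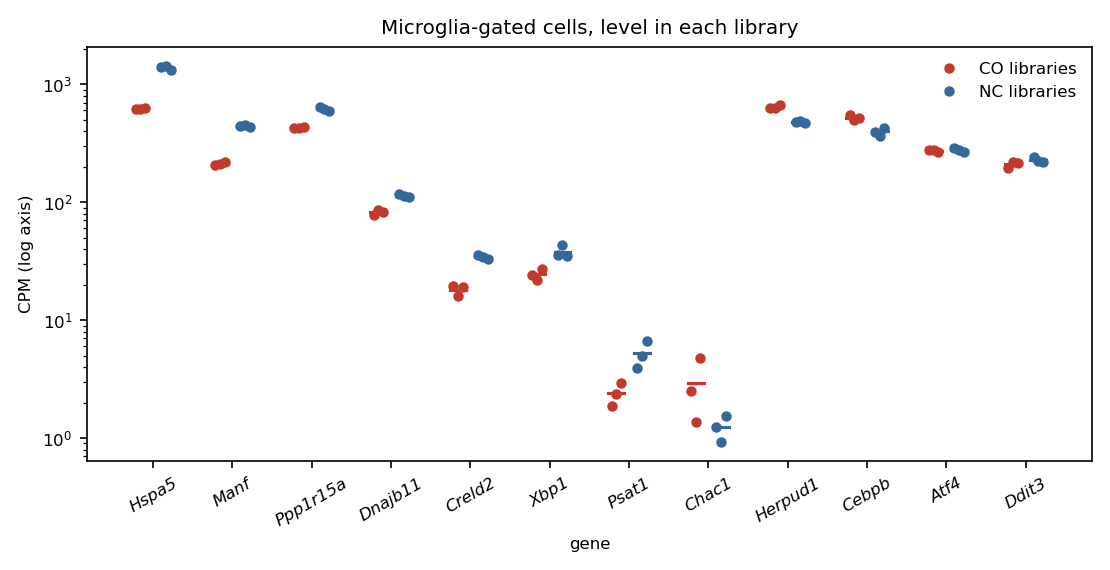
Level of 12 genes in each library of microglia-gated cells, in CPM on a log axis, with CO libraries in red to the left of NC libraries in blue and a bar at the level of the summed group. *Hspa5*, *Manf*, *Creld2* and *Xbp1* lie lower in every CO library than in any NC library, *Herpud1* and *Cebpb* lie higher, and *Chac1* overlaps.

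Degradation genes in microglia-gated cells were split. *Herpud1*, a membrane component of the degradation complex, had 635, 625 and 672 CPM in CO libraries, against 478, 489 and 467 CPM in NC libraries (0.43, interval 0.40 to 0.46). *Edem1*, which directs misfolded glycoproteins to degradation, was at 0.36, interval 0.31 to 0.42. By contrast *Sel1l* and *Syvn1*, the adaptor and the ubiquitin ligase of the same complex, were at -0.42 and -0.37. The derlins *Derl1* and *Derl2* were at -0.01 and -0.33, *Selenos* at -0.14 and the translocon subunit *Sec61b* at -0.15. No gene of this branch reached 1.5-fold.

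Of the sensors, *Eif2ak3* had 16.2, 16.1 and 16.3 CPM in CO libraries, against 20.3, 19.2 and 18.0 CPM in NC libraries (-0.24, interval -0.40 to -0.08). *Ern1* had 46.4, 43.9 and 42.9 CPM in CO libraries, against 56.0, 56.0 and 46.9 CPM in NC libraries (-0.25, interval -0.35 to -0.15). Both were lower in every CO library, though *Ern1* in NC replicate 3 came close to the CO values. *Atf6* overlapped between the groups, with 131, 136 and 127 CPM in CO libraries, against 135, 134 and 132 CPM in NC libraries (-0.02, interval -0.08 to 0.03). *Xbp1*, whose messenger RNA is both the substrate of IRE1 and a target of ATF6, had 24.2, 21.8 and 27.2 CPM in CO libraries, against 35.5, 43.6 and 35.0 CPM in NC libraries. Its ratio of -0.63, interval -0.75 to -0.51 was past 1.5-fold, but not without NC replicate 2 (-0.53), without CO replicate 2 (-0.56) or with cells thinned to 2000 UMIs (-0.54).

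Genes of the integrated stress response had no shared direction in microglia-gated cells, with 5 of 7 compared genes below 0 and 2 above. *Atf4*, its central transcription factor, had 276, 277 and 264 CPM in CO libraries, against 286, 279.8 and 266 CPM in NC libraries (-0.03, interval -0.07 to 0.01), overlapping throughout. *Ddit3*, which encodes CHOP, had 193, 221 and 214 CPM in CO libraries, against 241, 222 and 221 CPM in NC libraries (-0.12, interval -0.17 to -0.08), a small difference without overlap. *Ppp1r15a*, the phosphatase subunit that reverses eIF2 phosphorylation, had 429, 429 and 432 CPM in CO libraries, against 638, 614 and 589 CPM in NC libraries (-0.51, interval -0.54 to -0.48). *Cebpb*, a transcription factor of myeloid and stress responses, went the other way with 546, 496 and 513 CPM in CO libraries, against 393, 368 and 429.5 CPM in NC libraries (0.38, interval 0.35 to 0.42). *Psat1*, of serine synthesis, was low but lower in CO, with 1.88, 2.38 and 2.93 CPM in CO libraries, against 3.92, 4.99 and 6.72 CPM in NC libraries (-1.13, interval -1.50 to -0.77, 100 and 173 UMIs), and at -0.55 with a stricter gate. *Chac1*, which degrades glutathione, had 2.51, 1.38 and 4.75 CPM in CO libraries, against 1.24, 0.924 and 1.55 CPM in NC libraries (1.23, interval 0.71 to 1.78). It rested on 122 and 41 UMIs with overlapping libraries, and came to 0.66 without CO replicate 3 and to 2.03 with thinned cells. *Sesn2*, a stress-induced inhibitor of mTORC1 signalling, was at -0.26. *Atf5*, *Trib3* and *Asns* stayed under 100 UMIs and were not compared.

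At the level of single microglia-gated cells the chaperone difference ran through the whole distribution. Every cell with at least 2000 UMIs was thinned to 2000 UMIs, which left out 111 CO and 146 NC cells. The median cell then held 9 UMIs of the 15 chaperone genes in CO and 13 in NC, the 10th percentile was 4 and 6, and the 90th was 16 and 23. Means per library were 9.54, 9.62 and 9.72 in CO and 14.1, 14.1 and 13.8 in NC. The 10 genes of the integrated stress response gave a median of 2 UMIs in both groups, with means of 2.75 in CO and 3.04 in NC. Across cells of a group the chaperone sum and the integrated stress response sum had Spearman correlations near 0 (rho -0.051 over 6262 CO cells and -0.000932 over 5562 NC cells). Both sums come from the same thinned libraries, so these coefficients are given only as a description.

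**Figure D2:**
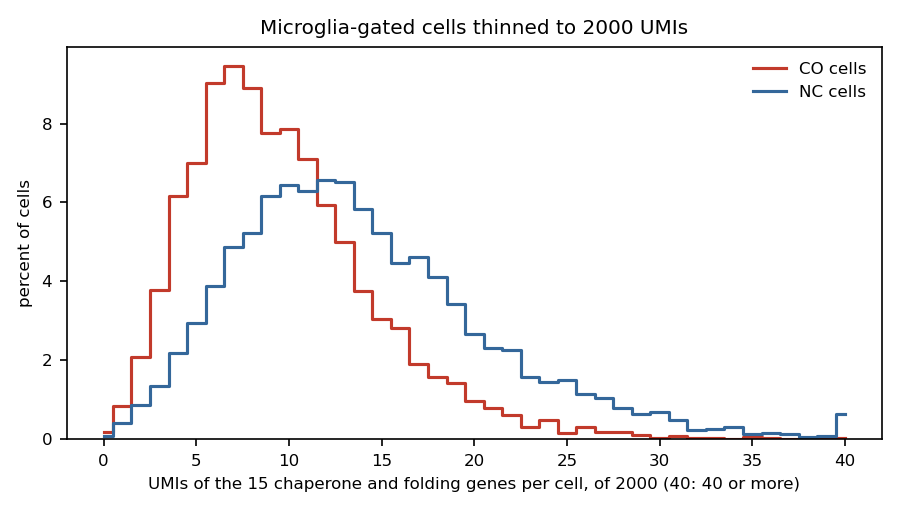
Share of microglia-gated cells (percent) by the number of UMIs of the 15 chaperone and folding genes among 2000 UMIs per cell, for 6262 CO cells in red and 5562 NC cells in blue. The CO curve lies at lower numbers than the NC curve, with a median of 9 in CO and 13 in NC.

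Genes known to respond to warm enzymatic digestion also differed in the class. Immediate early and dissociation genes were below 0 in 14 of 19 cases in microglia-gated cells (median -0.10), with summed levels of 28943 to 29808 CPM in CO libraries and 32185 to 33340 CPM in NC libraries. Their 3 furthest genes were *Nr4a2* at -0.87, *Nr4a1* at -0.73 and *Egr1* at -0.54. Cytosolic and mitochondrial heat shock chaperones were below 0 in 13 of 13 cases (median -0.38), with 29162 to 29897 CPM in CO libraries and 35940 to 38042 CPM in NC libraries. Their 3 furthest genes were *Hspa4l* at -1.02, *Hsph1* at -0.51 and *Hspa1b* at -0.51. *Hspa4l* was nearly absent, at 0.96 CPM in CO and 1.95 CPM in NC, with a wide interval of -1.63 to -0.43. *Hspa1b* is uncertain because it can share reads with the near-identical *Hspa1a*. In cells in the lowest, middle and highest tertile of the dissociation sum, the ratio of mean ER chaperone UMIs was -0.51, -0.56 and -0.60, and in the tertiles of the heat shock sum it was -0.54, -0.58 and -0.57. *Hspa5* was between -1.07 and -1.26 in all 6 of these strata. The groups were spread unevenly over the strata, with 24.3% of CO cells and 43.2% of NC cells in the highest heat shock tertile. The *Herpud1* ratio shrank across the tertiles of both sums, with 0.77, 0.50 and 0.32 for dissociation and 0.82, 0.58 and 0.26 for heat shock. Choroid plexus markers, which microglia should lack, differed too, with 2 of 8 higher and 6 lower in CO. Their sums in microglia-gated cells were 451 CPM in CO and 964 CPM in NC. At the ratio of *Hspa5* to those markers in choroid plexus-gated cells, choroid plexus RNA at those sums corresponds to 1.41 CPM of *Hspa5* in CO and 5.43 CPM in NC, beside 619.7 CPM in CO and 1384 CPM in NC measured, and free RNA of other cells was not estimated. Markers of other cells moved with the groups in microglia-gated cells. Monocyte or dendritic cell markers summed to 360 to 370 CPM in CO and 180.0 to 206 CPM in NC, with 6 of 8 higher and 2 lower in CO. B cell markers summed to 73.0 to 79.8 CPM in CO and 20.6 to 21.2 CPM in NC, with 2 of 6 higher, 3 lower and 1 at 0 in both. Oligodendrocyte markers summed to 1409 to 1436 CPM in CO and 1075 to 1095 CPM in NC, with 3 of 12 higher and 9 lower in CO. Astrocyte markers summed to 479.8 to 506 CPM in CO and 347 to 382 CPM in NC, with 6 of 11 higher, 4 lower and 1 at 0 in both. The part of these markers, of preparation stress and of free RNA in the microglial differences was not tested.

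Genes of the same pathways outside the 38 did not all follow the chaperones. In microglia-gated cells 15 of 24 other folding, glycosylation and redox genes were below 0 (median -0.10), with none past 1.5-fold. The furthest were the oxidase *Ero1b* (-0.49), *Txndc11* (0.48) and *Pdia5* (-0.47). Of 25 other translocation and export genes 16 were below 0 and 1 was past 1.5-fold. That was *Lman1*, a cargo receptor for export, with 84.4, 78.8 and 77.8 CPM in CO libraries, against 48.0, 47.3 and 40.1 CPM in NC libraries (0.84). *Kdelr2*, a receptor that returns ER proteins, was at -0.31 and *Sec62* at 0.29. Other degradation genes were evenly split (9 below and 10 above 0), with *Erlec1* at 0.39, *Erlin1* at -0.35 and *Ube2j1* at -0.31. Of 17 other sensors and factors 12 were above 0. Their furthest were *Creb3l1* (1.20, at 2.45 CPM in CO and 1.06 CPM in NC), the kinase gene *Eif2ak4* (0.42) and *Creb3l2* (-0.33). Among 25 other ATF4 targets 19 were above 0 (median 0.30), 5 at least 1.5-fold higher and 1 at least 1.5-fold lower. Of all genes compared in these cells 5.82% were at least 1.5-fold higher and 6.44% lower. The mitochondrial folate enzyme gene *Mthfd2* had 15.3, 11.8 and 15.8 CPM in CO libraries, against 6.03, 7.11 and 6.46 CPM in NC libraries (1.14). *Jdp2* had 175, 178 and 161 CPM in CO libraries, against 96.7, 96.0 and 94.0 CPM in NC libraries (0.84). *Slc7a11*, the cystine transporter, was at 0.83, with 9.14 CPM in CO and 5.14 CPM in NC. The transfer RNA synthetase genes *Tars* (0.72) and *Cars* (0.61) were the other 2 higher ones, and the lipoprotein receptor gene *Vldlr* (-0.67) the lower one, all 3 named after their values were seen. These 5 targets are named because they passed 1.5-fold, while *Atf4* itself, *Ddit3* and *Ppp1r15a* were below 0.

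Across the 9 classes the chaperones were the branch whose median lay below 0 in most classes. Their median ratio was below 0 in all 9 classes, between -0.56 in choroid plexus-gated and -0.11 in endothelial-gated cells, and 112 of 131 gene and class pairs were below 0. The direction turned in 2 classes: the median was 0.06 in astrocyte-gated cells with the stricter gate and 0.10 with thinned cells (4 of 10 compared chaperones below the median of all genes), and 0.08 in mural-gated cells with the stricter gate (2 of 7 below). At least 1.5-fold lower were 26 pairs (19.9%) and higher 2 pairs (1.53%), where over all genes 9.62% and 9.51% of 69899 pairs were. In 8 classes the choroid plexus marker sum was lower in CO than in NC (355 to 366 CPM in CO and 877 to 887 CPM in NC endothelial-gated cells). Single markers did not all follow, with 2 of 8 higher and 6 lower in CO in endothelial-gated cells. In astrocyte-gated and in ependymal-gated cells 3 were higher, 3 lower and 2 at 0 in both groups. The part of this RNA outside microglia-gated cells was not tested. The classes come from the same libraries and are not independent of each other. Translocation and degradation genes had 4 pairs lower and 7 higher of 67, the sensors 3 and 3 of 29, and the integrated stress response 9 and 8 of 52. *Manf*, *Calr* and *Hyou1* were below 0 in 9 of 9 classes and *Pdia4* and *Sdf2l1* in 8 of 8. *Hspa5* was below 0 in 8 of 9, with astrocyte-gated cells at 0.07. *P4hb* was below 0 in 3 of 9. The degradation gene *Edem1* was above 0 in 6 of 7 classes, with choroid plexus-gated cells at -0.40, and at least 1.5-fold higher in 3. The heat shock list was also below 0 in its median in 9 of 9 classes (-0.74 to -0.03), and the part of preparation stress in the other classes was not tested.

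**Figure D3:**
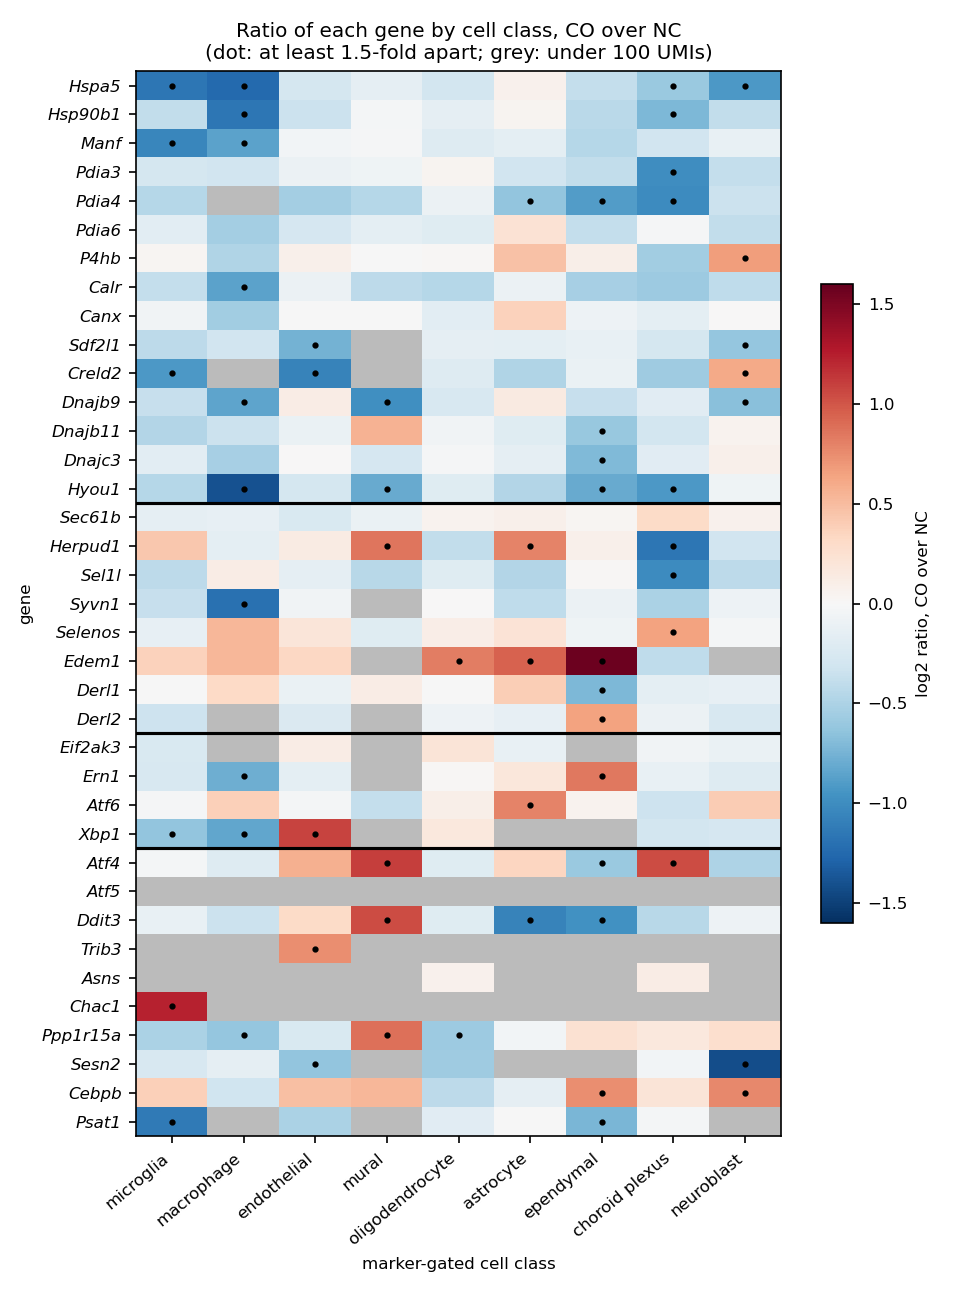
Heat map of the log2 ratio, CO over NC, of the 37 measured genes (rows, by branch from chaperones at the top to the integrated stress response at the bottom) in 9 cell classes (columns). Blue is lower in CO, red is higher, a dot marks at least 1.5-fold and grey marks genes under 100 UMIs. The chaperone rows are mostly blue, and the rows of *Xbp1*, *Herpud1*, *Atf4* and *Ddit3* hold both colours.

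**Figure D4:**
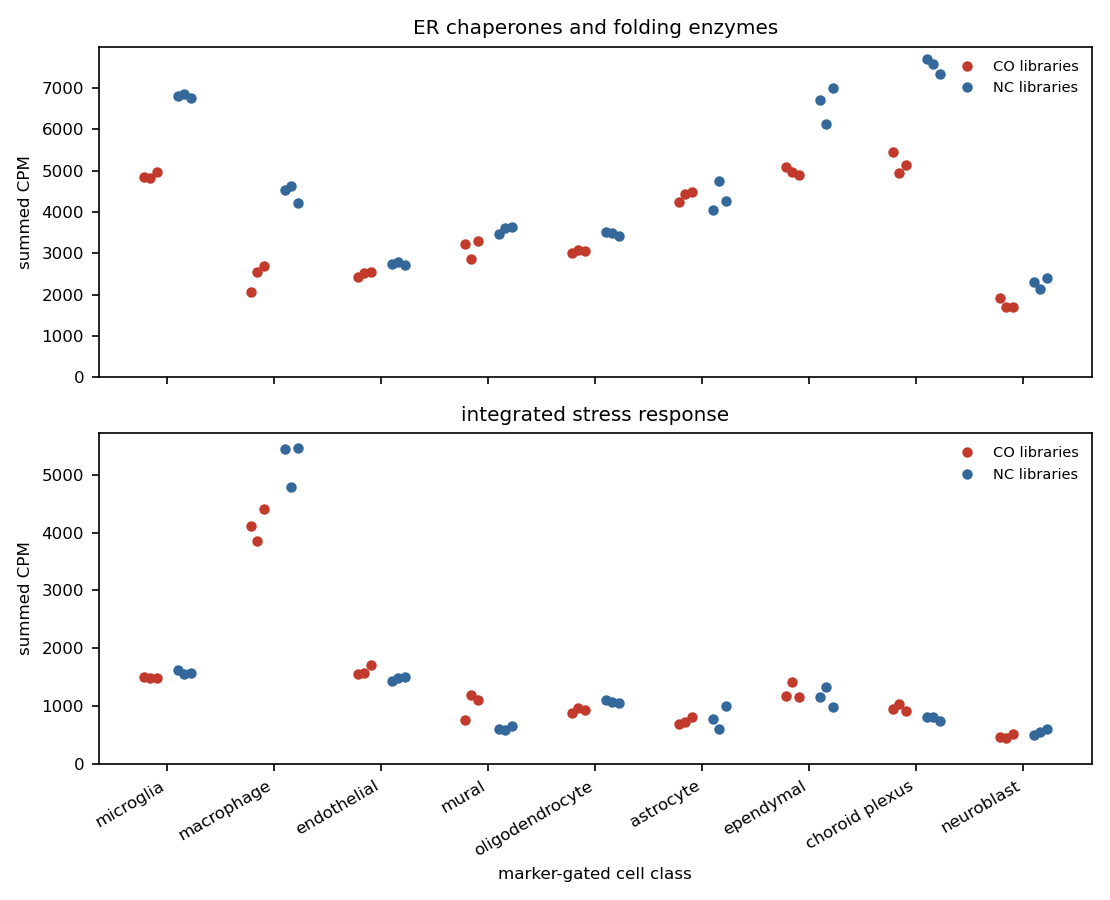
Summed level (CPM) of the 15 chaperone genes (top) and the 10 genes of the integrated stress response (bottom) in each library by cell class, CO in red to the left of NC in blue. Chaperone sums of all CO libraries lie below those of NC libraries in 8 classes and overlap in astrocyte-gated cells. The integrated stress response sums are highest in macrophage-gated cells. There *Cebpb* alone gave 2799.8 of 4112 CPM in CO and 3479 of 5248 CPM in NC.

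In border-associated macrophage-gated cells, which share the myeloid lineage with microglia, 6 chaperones were called lower in CO and no member was called higher. Of 28 members compared, 10 were at least 1.5-fold lower, where 12.5% of all genes compared were, and 0 were at least 1.5-fold higher, where 11.6% were. All 13 compared chaperones were below 0 (median -0.55), and their summed level was 2075, 2554 and 2689 CPM in CO libraries, against 4529, 4631 and 4218 CPM in NC libraries. *Hyou1* had 14.4, 23.7 and 14.7 CPM in CO libraries, against 46.9, 48.7 and 44.8 CPM in NC libraries (-1.40, interval -2.05 to -0.77). *Hspa5* had 594, 566 and 915 CPM in CO libraries, against 1600.4, 1692 and 1603 CPM in NC libraries (-1.25, interval -1.35 to -1.15). The ligase gene *Syvn1* was at -1.19, interval -1.85 to -0.57, *Hsp90b1* at -1.16, *Manf* at -0.86 and *Calr* at -0.86. In each of these 6 the groups did not overlap. Over the 28 members compared, all CO libraries lay below all NC libraries in 13 and above in 3. The share of all genes without overlap was counted only in microglia-gated cells. Here and in the classes below, lack of overlap therefore has no background beside it. Without NC replicate 2 only 6 members were past 1.5-fold, and the calls of *Dnajb9*, *Ern1*, *Xbp1* and *Ppp1r15a* each ended without 1 library or another (*Dnajb9* -0.58 without NC replicate 2 and -0.57 without CO replicate 3, *Ern1* -0.53 without NC replicate 3, *Xbp1* -0.53 without NC replicate 2, *Ppp1r15a* -0.54 without NC replicate 3 and -0.57 without CO replicate 1). *Dnajb9* was at -1.46 without CO replicate 2. Thinned to 2000 UMIs, *Syvn1* moved to -2.03. Median depth was 4926 UMIs per cell in CO and 3888 in NC. Neuroblast markers, 7 of 10 detected, summed to 49.1 to 124 CPM in CO and 0 to 9.36 CPM in NC. Choroid plexus markers, with 3 of 8 higher and 5 lower in CO, summed to 431 to 754 CPM in CO and 1189.5 to 1348 CPM in NC. The part of both lists in these ratios was not tested.

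In endothelial-gated cells the transcription factor genes *Xbp1*, *Atf4* and *Ddit3* had ratios above 0, while their branches were mixed. Of the sensors and their transcription factors 2 were below 0 and 2 above, and of the integrated stress response 3 below and 4 above. *Ppp1r15a* was lower, at 600.7 CPM in CO and 714 CPM in NC. *Xbp1* had 33.4, 25.3 and 29.2 CPM in CO libraries, against 12.2, 12.2 and 17.2 CPM in NC libraries (1.08, interval 0.86 to 1.30), so every CO library was above every NC library, unlike in microglia- and macrophage-gated cells. *Atf4* had 443, 497 and 478 CPM in CO libraries, against 317, 331 and 308 CPM in NC libraries (0.57, interval 0.52 to 0.62), just short of 1.5-fold, and *Ddit3* was at 0.31, interval 0.25 to 0.36. *Trib3*, a pseudokinase target of ATF4 and CHOP that was compared only here, had 6.60, 6.67 and 9.75 CPM in CO libraries, against 5.06, 3.96 and 4.66 CPM in NC libraries (0.75, interval 0.34 to 1.16). Chaperone ratios had a median of -0.11, with *Creld2* at -1.07, interval -1.32 to -0.83 and *Sdf2l1* at -0.76, interval -0.95 to -0.57, both without overlap. *Sesn2* was at -0.63, interval -0.81 to -0.45. In all 3 of 34 members were at least 1.5-fold lower and 2 higher, where 10.6% and 10.6% of all genes compared were, so the number of calls was below the background. *Trib3* was at 0.53 without CO replicate 3 and *Sesn2* at -0.43 without CO replicate 2 and -0.49 with thinned cells. Neutrophil markers, 5 of 9 detected, summed to 145 to 172 CPM in CO and 35.9 to 40.1 CPM in NC, and T or NK markers, 11 of 11 detected, to 2.37 to 3.01 CPM in CO and 24.0 to 88.3 CPM in NC. Their part in these ratios was not tested. The difference between endothelial-gated and microglia-gated cells was not tested either.

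**Figure D5:**
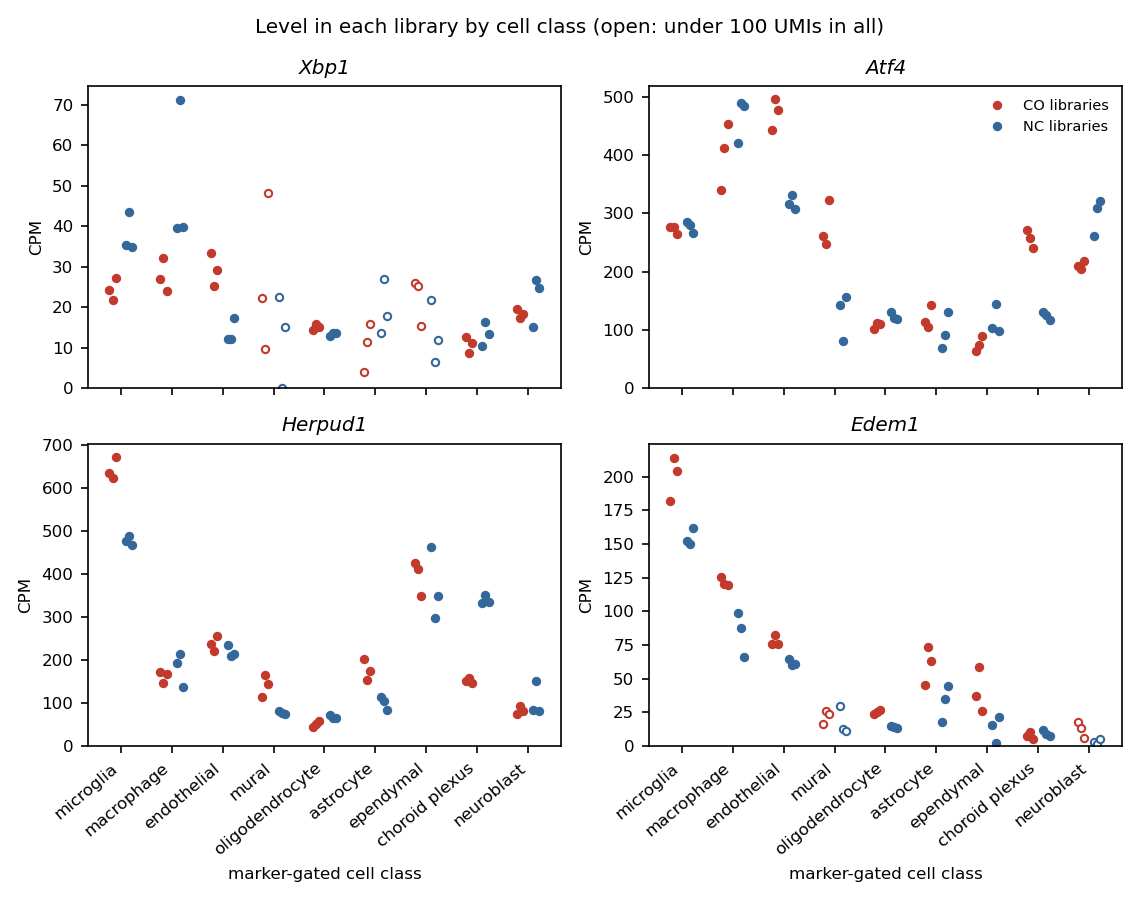
Level (CPM) of *Xbp1*, *Atf4*, *Herpud1* and *Edem1* in each library by cell class, CO in red to the left of NC in blue, with open points where a gene had under 100 UMIs in all. *Xbp1* is higher in CO in endothelial-gated cells and lower in microglia-gated cells, *Herpud1* is lower in CO in choroid plexus-gated cells, and *Edem1* is higher in CO in most classes.

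Mural cells, the pericytes and smooth muscle of vessels, had the highest median ratio of the integrated stress response of any class (0.96 over 4 compared genes). *Atf4* had 262, 248 and 324 CPM in CO libraries, against 142, 81.5 and 157 CPM in NC libraries (1.10, interval 0.76 to 1.45), and *Ddit3* had 150.1, 193 and 217 CPM in CO libraries, against 89.9, 90.1 and 89.9 CPM in NC libraries (1.05, interval 0.64 to 1.47). No library of a group overlapped with the other group in these 2 genes. *Ppp1r15a* was at 0.88, interval 0.37 to 1.40 with overlapping libraries and *Herpud1* at 0.85, interval 0.40 to 1.32 without overlap. Among chaperones *Dnajb9* was at -0.98, interval -1.38 to -0.59, without overlap, and *Hyou1* at -0.80, interval -1.33 to -0.28, with overlap. Of 23 members 2 were lower and 4 higher, where 11.4% and 12.3% of all genes compared were. Counts were few (*Atf4* 253 and 99 UMIs), and several calls did not last. *Atf4* was at 0.15 with a stricter gate, *Herpud1* at 0.26 with thinned cells, *Ppp1r15a* at 0.57 with thinned cells and 0.56 with a looser gate but 3.10 with a stricter one, and *Hyou1* at -0.575 without NC replicate 3 and -0.56 without CO replicate 1. In the same cells 14 of 16 dissociation and immediate early genes were above 0, with summed levels of 12034 to 17111 CPM in CO and 7779 to 10986 CPM in NC. Monocyte or dendritic cell markers, 4 of 8 detected, summed to 61.2 to 234 CPM in CO and 0 to 12.9 CPM in NC. The part of either in the result was not tested.

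Choroid plexus epithelium, with the highest NC chaperone sum of the 9 classes, had ratios below 0 for all 15 chaperones, of which 5 were called lower. The sums were 5463, 4933 and 5148 CPM in CO libraries and 7692, 7569 and 7337 CPM in NC libraries. *Herpud1*, above 0 in microglia-gated cells, had 152, 158 and 147 CPM in CO libraries, against 333, 352 and 336 CPM in NC libraries here (-1.16, interval -1.25 to -1.08). *Pdia4* was at -1.01, interval -1.17 to -0.86, *Sel1l* at -1.01, interval -1.16 to -0.85, *Pdia3* at -0.99, interval -1.04 to -0.94 and *Hyou1* at -0.92, interval -1.07 to -0.78, all without overlap. *Atf4* ran the other way with 271, 258 and 241 CPM in CO libraries, against 130.5, 126 and 116 CPM in NC libraries (1.04, interval 0.95 to 1.13), while *Ddit3* was at -0.44. Of 34 members 7 were lower and 2 higher, where 12.9% and 10.1% of all genes compared were. With scaling by total counts 12 were lower and 1 higher, where 19.0% and 6.92% of all genes were. Cells were shallower in CO, with a median of 17051 UMIs against 40349 in NC, and choroid plexus markers, among them the transthyretin gene, took up 361644 to 404545 CPM in CO and 278231 to 342526 CPM in NC. Heat shock chaperones were below 0 in 12 of 13 cases, 5793 to 6874 CPM in CO and 10696 to 11193 CPM in NC. The median of all genes moved to -0.15 with scaling by total counts and to 0.17 with cells thinned to 2000 UMIs. Relative to that median the chaperones were at -0.55 in the scaling used and -0.43 with thinned cells, where the ratio of *Pdia4* came to -0.52. With total counts the value was -0.55 by construction, because scaling shifts all genes of a class alike. The call of *Hspa5* (-0.59) ended without NC replicate 1 (-0.52) and without CO replicate 2 (-0.55). The part of depth and of marker RNA in these ratios was not tested further.

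Ependymal cells, which line the ventricles, had 14 of 15 chaperones below 0, of which 4 were called lower, beside higher *Edem1* and *Ern1*. *Pdia4* had 205, 157 and 222 CPM in CO libraries, against 377, 322 and 369 CPM in NC libraries (-0.90, interval -1.07 to -0.72) and *Hyou1* was at -0.81, interval -1.08 to -0.54. *Edem1* had 37.2, 58.9 and 25.9 CPM in CO libraries, against 15.5, 2.16 and 21.8 CPM in NC libraries (1.56, interval 0.91 to 2.27), on 99 and 24 UMIs, and *Ern1* was at 0.84, interval 0.30 to 1.41. *Ddit3* was at -0.97, interval -1.35 to -0.59 and *Cebpb* at 0.75, interval 0.63 to 0.87. Of 30 members 8 were lower and 4 higher, where 12% and 11.8% of all genes compared were. These cells were few, and 7 members were past 1.5-fold without CO replicate 2. *Hyou1* was at -0.48 without NC replicate 3, *Ern1* at 0.49 without CO replicate 1, *Cebpb* at 0.57 without CO replicate 2 and *Ern1* at 0.06 with thinned cells, where *Edem1* was at 0.97 and *Ddit3* at -1.69. The other calls that ended without 1 library were *Dnajb11* (-0.28 without NC replicate 1, -0.34 without CO replicate 2, -0.57 without CO replicate 3), *Derl1* (-0.55 without NC replicate 2, -0.58 without CO replicate 2), *Derl2* (0.41 without NC replicate 1, 0.58 without CO replicate 2, 0.47 without CO replicate 3), *Atf4* (-0.42 without NC replicate 2, -0.46 without CO replicate 1) and *Psat1* (-0.57 without NC replicate 2). Microglial markers, 11 of 12 detected, summed to 363 to 423 CPM in CO and 128 to 158 CPM in NC, and *Edem1* is highest in microglia-gated cells. Their part in the result was not tested.

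In astrocyte- and oligodendrocyte-gated cells members were called no more often than all genes were. In astrocyte-gated cells 2 of 31 members were lower and 3 higher, where 11.4% and 10.9% of all genes compared were. *Ddit3* had 33.2, 42.4 and 60.2 CPM in CO libraries, against 125, 66.5 and 97.6 CPM in NC libraries (-1.07, interval -1.41 to -0.74). *Edem1* had 45.2, 73.3 and 63.1 CPM in CO libraries, against 17.7, 34.8 and 44.4 CPM in NC libraries (0.95, interval 0.52 to 1.39). *Herpud1* had 202, 153 and 174 CPM in CO libraries, against 114, 104 and 84.3 CPM in NC libraries (0.79, interval 0.55 to 1.03). The groups did not overlap in any of the 3. *Atf6* was at 0.80, interval 0.49 to 1.11 and at 0.34 with thinned cells. *Pdia4* was at -0.63, interval -1.01 to -0.25, and its call ended without NC replicate 2 (-0.43), without CO replicate 1 (-0.47), with a stricter gate (-0.30) or with thinned cells (-0.19). Microglial markers, 10 of 12 detected, summed to 316 to 503 CPM in CO and 206 to 217 CPM in NC, and *Edem1* and *Herpud1* are highest in microglia-gated cells. Their part in the result was not tested. In oligodendrocyte-gated cells 1 of 34 members was lower and 1 higher, where 6.96% and 6.07% of all genes compared were. Below 0 there were 13 of 15 chaperones (median -0.17), and 5317 of 10322 genes compared (median -0.01). *Edem1* had 23.9, 25.2 and 26.5 CPM in CO libraries, against 15.1, 14.3 and 13.4 CPM in NC libraries (0.82, interval 0.63 to 1.00). *Ppp1r15a* was at -0.59, interval -0.71 to -0.46, on the border of the call. It was at -0.45 without CO replicate 1, -0.54 without NC replicate 2 and at -0.27 with the highest doublet scores left out. The chaperone sums were 3008 to 3088 CPM in CO libraries and 3417 to 3518 CPM in NC libraries, and dissociation genes were below 0 in 18 of 18 cases (3536 to 3863 CPM in CO, 5028 to 5182 CPM in NC). Microglial markers summed to 242 to 275 CPM in CO and 344 to 389 CPM in NC, with 11 of 12 lower in CO, and fibroblast markers to 8.43 to 18.3 CPM in CO and 42.1 to 74.5 CPM in NC, with 8 of 8 lower. Neuroblast markers summed to 41.5 to 57.4 CPM in CO and 11.5 to 25.4 CPM in NC, with 9 of 10 higher. The part of these lists in the ratios was not tested.

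Neuroblast-gated cells, the migrating neuronal precursors, had 4 of 31 members lower and 3 higher, where 6.19% and 11.0% of all genes compared were. *Hspa5* had 308, 216 and 212 CPM in CO libraries, against 378, 415 and 580.2 CPM in NC libraries (-0.92, interval -1.03 to -0.81), and *Dnajb9*, another BiP cochaperone, was at -0.67, interval -0.88 to -0.47. *Sesn2* had 12.4, 6.21 and 6.21 CPM in CO libraries, against 13.7, 26.8 and 25.9 CPM in NC libraries (-1.41) on 56 and 48 UMIs, and was at -2.72 with thinned cells. *P4hb* was higher, with 67.8, 74.1 and 62.1 CPM in CO libraries, against 51.9, 36.2 and 39.5 CPM in NC libraries (0.67, interval 0.35 to 1.01). *Cebpb* was at 0.77, interval 0.07 to 1.54 and *Sdf2l1* at -0.62, interval -1.07 to -0.16, both with overlapping libraries. *P4hb* was at 0.58 without NC replicate 2. *Sdf2l1* was at -0.24 without NC replicate 1 and -0.43 without CO replicate 3, *Cebpb* at 0.50 without NC replicate 1, 0.44 without CO replicate 3 and 0.10 with the highest doublet scores left out. Microglial markers summed to 225 to 262 CPM in CO and 138 to 162 CPM in NC, with 10 of 12 higher, 1 lower and 1 at 0 in both, and monocyte or dendritic cell markers to 9.74 to 27.0 CPM in CO and 0 to 3.15 CPM in NC, with 4 of 8 higher and 4 at 0 in both. *Cebpb* is highest in macrophage-gated cells. Dissociation and immediate early genes summed to 10682 to 12470 CPM in CO and 14338 to 16820 CPM in NC. The part of these in the ratios was not tested.

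The members also differed in where they were expressed, whatever the exposure. Levels here are CPM of 1 gene across classes, so gene length does not enter. *Psat1* was highest in oligodendrocyte-gated cells, at 659 CPM in CO and 746 CPM in NC, and nearly absent from microglia-gated cells (2.40 CPM in CO and 5.26 CPM in NC). *Cebpb* was highest in macrophage-gated cells, at 2799.8 CPM in CO and 3479 CPM in NC, followed by ependymal-gated cells at 801 CPM in CO and 477 CPM in NC with no overlap of libraries. *Creld2* was highest in ependymal-gated cells (154 CPM in CO and 166 CPM in NC), as was *Pdia4* (193 CPM in CO and 359.6 CPM in NC). *Edem1* and *Herpud1* were highest in microglia-gated cells, apart from the next class in both groups. *Selenos*, a membrane selenoprotein of the degradation machinery, was highest in astrocyte-gated cells (353 CPM in CO and 304 CPM in NC). *Atf6* was highest in macrophage-gated cells (392 CPM in CO and 301 CPM in NC). The class with the highest *Hspa5* was choroid plexus in both groups (1184 CPM in CO and 1787 CPM in NC), and its libraries overlapped those of the next class, which was ependymal in CO and macrophage in NC. For *Xbp1*, *Atf4*, *Ddit3* and *Ppp1r15a* the highest class was endothelial in CO and macrophage in NC. In CO the libraries of these classes overlapped for all 4 genes.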

How the data were processed

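The deposited files of the 6 libraries hold raw UMI counts per gene and cell barcode, not normalized by the authors. Per the submitters' processing notes they were made with Cell Ranger against the Rnor_6.0 build, whose version the notes leave out. Of 42293 barcodes, the 38027 with 500 or more UMIs and 200 or more genes entered, with no separate correction for free RNA. A cell entered a class with at least 50% of its measured marker genes detected and 20 percentage points more than of any other class. Cells with a smaller lead over the next class were left out, which also served to leave out some doublets. A cell with 50% or more of the markers of another class stayed where its lead was large enough. Counts were summed per library and class and scaled with TMM (edgeR 4.0.16 in R 4.3.3; scipy 1.17.1 for exact binomial 95% intervals). The steps were tested on simulated data. Genes with at least 100 UMIs over both groups were compared. All 38 members were accounted for. Named with values in each library were the sensors, transcription factors and members furthest from 0, with at most 6 members in each class outside microglia, and the 3 furthest genes of each other list. *Edem1*, *Herpud1*, *P4hb* and *Atf4* were also followed for their direction across classes, chosen after their values were seen. The members, lists and gates were chosen with earlier results of these data known. Promoter windows came from RefSeq (GRCr8), and no coordinate was carried over from Rnor_6.0.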

Additional observations from a re-analysis of the deposited data

Results flagged for a closer look

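For 6 genes every CO library lay above every NC library in one class and below in another, with at least 1.5-fold in both. How many of all genes did the same across the classes was not counted, so no background stands beside this number. In microglia-gated cells alone all CO libraries lay below all NC libraries in 24.2% of all genes compared, and above in 24.2%. None of these differences between classes was tested. *Xbp1* was at 1.08 (log2, CO over NC) in endothelial-gated cells, at -0.63 in microglia-gated and at -0.84 in macrophage-gated cells. *Atf4* was at 1.10 in mural-gated and 1.04 in choroid plexus-gated cells, and at -0.59 in ependymal-gated cells. *Ddit3* was at 1.05 in mural-gated cells, at -1.07 in astrocyte-gated and at -0.97 in ependymal-gated cells. *Herpud1* was at 0.85 in mural-gated and 0.79 in astrocyte-gated cells, and at -1.16 in choroid plexus-gated cells. *Ern1* was at 0.84 in ependymal-gated and at -0.78 in macrophage-gated cells. *Creld2* was at 0.61 in neuroblast-gated cells, at -0.92 in microglia-gated and at -1.07 in endothelial-gated cells. The *Creld2* value in neuroblast-gated cells came to 0.37 without CO replicate 1, 0.13 with thinned cells and 0.07 with the looser gate. It was -0.11 with the stricter gate. The *Atf4* value in ependymal-gated cells came to -0.42 without NC replicate 2 and -0.46 without CO replicate 1. In mural-gated cells *Atf4* came to 0.15 with the stricter gate and *Herpud1* to 0.26 with thinned cells. Without NC replicate 2, *Xbp1* came to -0.53 in both microglia-gated and macrophage-gated cells. *Ern1* came to 0.06 in ependymal-gated cells when thinned, and to -0.53 in macrophage-gated cells without NC replicate 3.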

How the results depend on the processing

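Counts of members at least 1.5-fold apart moved with the fold asked for, the filter on low counts, the gate and thinning, and so did the share of all genes past the same threshold. At 2-fold they were 4 in macrophage-gated, 2 in endothelial-gated, 2 in mural-gated, 0 in oligodendrocyte-gated, 1 in astrocyte-gated, 1 in ependymal-gated, 4 in choroid plexus-gated and 1 in neuroblast-gated cells, where 1.08% to 4.17% of all genes were lower and 2.12% to 4.34% higher over the 9 classes. With cells thinned to 2000 UMIs they were 3 in microglia-gated, 3 in mural-gated, 2 in astrocyte-gated, 5 in ependymal-gated and 4 in neuroblast-gated cells, where fewer genes reached 100 UMIs and 4.14% to 13.4% of all genes were lower and 4.13% to 15.3% higher. With no filter on low counts they were 13 in mural-gated, 5 in oligodendrocyte-gated and 8 in astrocyte-gated cells, where 13.8% to 24.98% of all genes were lower and 13.6% to 27.4% higher. With at least 30 counts mural-gated cells had 11, where 17.6% of all genes were lower and 18.4% higher. With a mean of at least 16 CPM neuroblast-gated cells had 4 (5.73% of all genes lower, 8.37% higher). Without the highest 6% of doublet scores endothelial-gated cells had 8 (11.2% of all genes lower, 11.2% higher) and ependymal-gated cells 7 (12.2% lower, 10.9% higher). With the stricter gate mural-gated cells had 2 (13.3% of all genes lower, 18.3% higher) and oligodendrocyte-gated cells 1 (5.24% lower, 6.13% higher). The single lower call in oligodendrocyte-gated cells was also lost with total-count scaling, median-of-ratios factors or cells of at least 2000 UMIs, which left 1 call each. *Creld2* in neuroblast-gated cells changed direction with the stricter gate, to -0.11, and the cause was not tested. Leaving out 1 library gave 5 to 6 in microglia-gated, 6 to 11 in macrophage-gated, 4 to 7 in endothelial-gated, 6 to 8 in mural-gated, 1 to 4 in oligodendrocyte-gated, 4 to 9 in astrocyte-gated, 7 to 11 in ependymal-gated, 9 to 12 in choroid plexus-gated and 4 to 6 in neuroblast-gated cells, where 5.61% to 14.5% of all genes were lower and 5.23% to 14.3% higher. The ratios in microglia-gated cells ranged over all alternatives from -1.21 to -1.13 for *Hspa5*, -1.12 to -1.03 for *Manf*, -1.06 to -0.84 for *Creld2* and 0.35 to 0.46 for *Herpud1*. The looser gate, at 40% of markers, was chosen after seeing the data. Taking libraries as replicates, edgeR's quasi-likelihood test at an adjusted p of 0.05 called 27 of 34 members in microglia-gated cells and 37.5% of all genes, and with a replicate block 27 members. No label pairs equal replicate numbers. DESeq2 called 26 members and 30.6% of genes. Depth limited the small classes: *Atf5* was compared in 0 of 9 classes, *Trib3* and *Chac1* in 1 and *Asns* in 2.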

Other observations

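Classes with fewer than 30 cells in some library were left out of the comparisons, and their summed levels are given as values, without TMM scaling. Neutrophil-gated cells, 27 in CO and 0 in NC, had 575 CPM of the 15 chaperone genes. Beside this they had 5283 CPM of the 10 genes of the integrated stress response. How the latter sum split over its genes, *Cebpb* among them, was not examined. Fibroblast-gated cells, 54 in CO and 94 in NC, had 5639 CPM of chaperone genes in CO and 5780.3 CPM in NC. T or NK-gated cells, 54 in CO and 74 in NC, had 1761 CPM in CO and 2409 CPM in NC. B-gated cells, 25 in CO and 65 in NC, had 2336 CPM in CO and 2465 CPM in NC. The 3887 CO and 4333 NC cells that passed no gate had 3633 CPM in CO and 4379.9 CPM in NC.

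Across microglia-gated cells thinned to 2000 UMIs, the sum of the integrated stress response varied with that of dissociation and immediate early genes (Pearson r 0.375 over 6262 CO cells and 0.412 over 5562 NC cells, Spearman rho 0.327 in CO and 0.384 in NC). The chaperone sum had r -0.159 with the same list in CO and -0.0952 in NC. Cells of a group share their libraries, so these values describe the cells only.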
